A study of Mus musculus with 12 samples.

Results

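The transferrin receptor gene, Tfrc (also called CD71), was followed across left ventricles (LVs) from 12 mice, measured by 1 probe of the 60915 on the array. The probe carries the RefSeq accession of the Tfrc transcript and was printed as 20 spots on every array. It is 1 of 15 housekeeping probes that could be named. Tfrc was chosen from these 15 with its levels on the 12 arrays known, so its levels and group differences are a description and no p is given for them.

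Transferrin receptor 1 sits at the cell surface and binds iron-loaded transferrin. The pair is taken up by endocytosis, iron is released in the endosome, and the receptor returns to the surface. Its mRNA is stabilised by iron regulatory proteins when iron inside the cell is low. In cardiomyocytes the receptor is a main route of iron entry, and iron is needed there for respiration in mitochondria. Developing red blood cells and dividing cells also carry much of it, and arrays print the gene as a reference on the assumption that it is steady.

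All mice were on the C57BL/6J background, and all expressed in the heart a β1-adrenergic receptor whose sites for GRKs, the kinases that let it engage β-arrestin, were mutated (GRK-beta1AR). Those with no other transgene are called TG. In double transgenic mice (DTG) miR-150 was overexpressed as well, from the CAG promoter, which is active in most cell types and not in cardiomyocytes alone. Mice of each genotype received isoproterenol (ISO), a β-adrenergic agonist, or vehicle for 1 week, which made 4 groups of 3 mice with 1 array a mouse. The TG vehicle mice were 9, 9 and 12 weeks old, the TG ISO mice 9, 10 and 10, the DTG vehicle mice all 10, and the DTG ISO mice 10, 11 and 12. Each group had 1 female and 2 males. No group lacked the mutant receptor.

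Levels are given as the log2 of the background-subtracted signal relative to the 75th percentile of the same array, so a step of 1 is a 2-fold change. That percentile ranged from 244 to 540, and the share of probe spots well above background from 53.2% to 79.5%. The number of arrays limits the precision. The arrays were scanned in 3 runs. Scan 1 held TG vehicle 1 and 2, TG ISO 1 and 2, and DTG vehicle 1 and 2, scan 2 held DTG vehicle 3 and all 3 DTG ISO arrays, and scan 3 held TG vehicle 3 and TG ISO 3. On principal component 1 of all other tested probes, TG ISO 1, TG ISO 2 and TG vehicle 3 scored 122.6 to 171.2 and the other 9 arrays -79 to -26. TG vehicle 3 thus lay with TG ISO 1 and 2, and TG ISO 3, at -27.7, lay with TG vehicle 1 and 2, at -28.3 and -34.0. On this component each of these 2 arrays resembled the other's group more than its own. DTG vehicle 3, at -76.2, lay with the DTG ISO arrays of its scan run, at -79 to -66.55. DTG vehicle 1 and 2, from scan 1, were at -30.0 and -26.0. The labels were kept as given, whether they are right was not tested, and each TG mean below rests on them. TG comparisons are therefore also given without both TG vehicle 3 and TG ISO 3.

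Tfrc was bright on every array. All of the spots used were well above background and none of them was saturated. The mean processed signal of the spots was lowest on TG vehicle 3, at 6742, and highest on DTG ISO 1, at 39070, while the local background around the spots was 23 to 26. The ratio of highest to lowest was 5.8-fold before scaling and 4.39-fold after it.

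In DTG ISO hearts Tfrc stood at 6.56, 6.18 and 6.13, with a mean of 6.29 ± 0.24 (SD, n = 3). In DTG vehicle hearts it stood at 6.46, 5.59 and 6.21, with a mean of 6.09 ± 0.45 (SD, n = 3). DTG vehicle 2 was thus the only DTG array below 6. In TG vehicle hearts it stood at 5.86, 6.12 and 4.43, with a mean of 5.47 ± 0.91 (SD, n = 3). In TG ISO hearts it stood at 4.82, 5.28 and 5.76, with a mean of 5.29 ± 0.47 (SD, n = 3). TG vehicle 3 was the lowest of the 12 arrays, 1.43 lower than the next array of its own group, and TG vehicle had the widest spread of the 4 groups.

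The order of group means was DTG ISO, DTG vehicle, TG vehicle and TG ISO. The gaps between neighbours in this order were 0.21, 0.62 and 0.18, and each was smaller than the SD of at least 1 of the groups on its 2 sides. The array values of each pair of neighbours overlapped. DTG ISO and TG ISO, at the ends of the order, did not overlap. The 6 DTG arrays ran from 5.59 to 6.56 with a median of 6.20, and the 6 TG arrays from 4.43 to 6.12 with a median of 5.52.

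**Figure D1:**
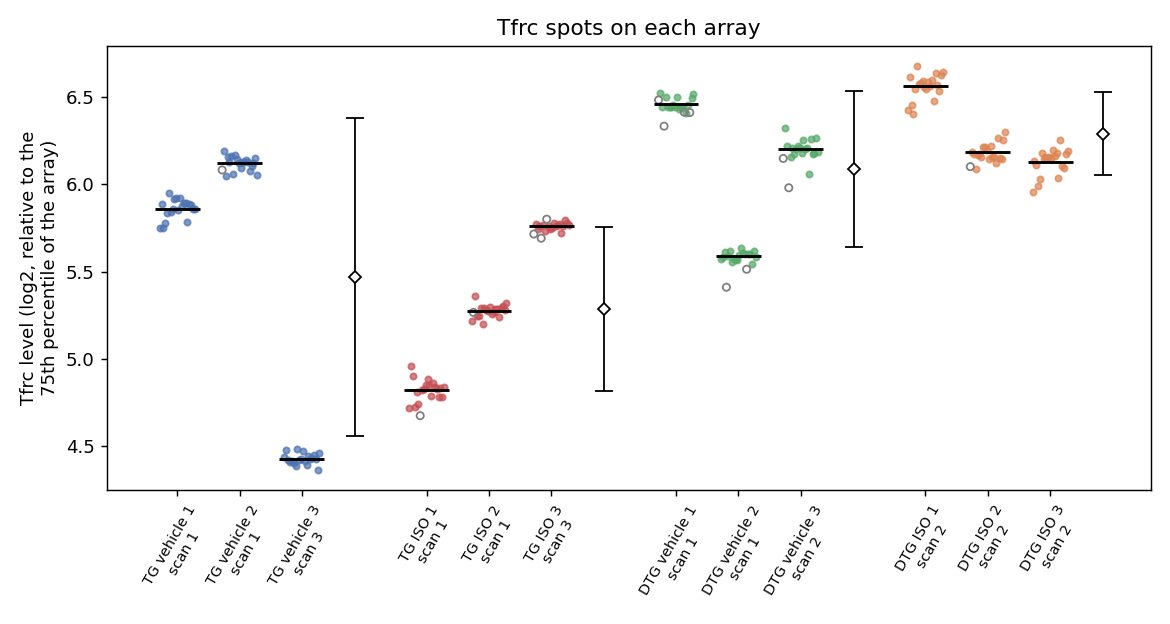
Level of each Tfrc spot on the 12 arrays (y axis, log2 relative to the 75th percentile of the array; x axis, array and scan run). Filled points are spots used, open grey points are spots flagged as outliers and left out, black lines are array means, and diamonds with bars are group means ± SD (n = 3 arrays); TG vehicle 3 is lowest at 4.43 and DTG ISO 1 highest at 6.56.

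The repeated spots gave the technical spread of single spots on one array, a measure that did not enter the choice of the gene. Their SD was 0.018 to 0.074 on the log2 scale, with a median of 0.046 over arrays. By this median Tfrc ranked 7 among the 15 housekeeping probes, whose medians ran from 0.033 for Gusb to 0.243 for Ldhal6b. Between 16 and 20 spots were used per array, and the SE of an array level over its spots was 0.004 to 0.017. The spread between arrays of one group was several times wider than that between spots, since the smallest group SD was 0.24.

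The ranges of the spots did not overlap in 58 of the 66 pairs of arrays. All 3 TG vehicle arrays were apart from each other by this measure, and so were all 3 TG ISO and all 3 DTG vehicle arrays. In DTG ISO, arrays 2 and 3 overlapped. The spots lay between rows 15 and 379 of the array. No spot lay on the same side of the array mean on all 12 arrays, and the largest mean deviation of a spot position, spots flagged as outliers included, was 0.087. Most mice of one group thus differed by more than the range of their spots, DTG ISO 2 and 3 being the exception. The levels of these were 6.18 (SE over spots 0.012) and 6.13 (SE over spots 0.017). The repeated spots share one RNA extract and one labelling and do not measure the error of those steps.

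Isoproterenol and vehicle were compared first in mice with the mutant receptor alone. Tfrc was 5.29 in TG ISO and 5.47 in TG vehicle, a difference of -0.18 (SE 0.43, limma fit over all probes tested). The arrays overlapped. Over all tested probes with a value on every array, 44739 in number, the groups did not overlap in either direction at 4.54% of probes. The scans gave opposite differences. Within scan 1, TG ISO 1 and 2 averaged 5.05 and TG vehicle 1 and 2 averaged 5.99, a difference of -0.94 with no overlap. Within scan 3, TG ISO 3 stood at 5.76 and TG vehicle 3 at 4.43, a difference of 1.33 with 1 array a group. Without TG vehicle 3 the difference was -0.70 and the arrays no longer overlapped, and without TG vehicle 2 it was 0.14. TG vehicle 3 and TG ISO 3, the only arrays of scan 3, are those that resembled each other's group. Without both, the same arrays as within scan 1 were left, 2 in each group, and the difference was -0.94 (SE 0.32, limma), with no overlap. TG vehicle 3 was also the lowest Tfrc array, so leaving it out narrows the spread. Smaller groups separate more easily, and the share of probes without overlap was not computed for them. The pooled value thus depends on how these 2 arrays are labelled, and its sign changed when single arrays were left out.

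In mice that also overexpressed miR-150, Tfrc was 6.29 in DTG ISO and 6.09 in DTG vehicle, a difference of 0.21 (SE 0.43). The arrays overlapped, and DTG vehicle 1, at 6.46, was higher than DTG ISO 2 and 3. The share of probes without overlap was 13% in this comparison. Within scan 2 the 3 DTG ISO arrays averaged 6.29 and DTG vehicle 3 stood at 6.21, a difference of 0.086. DTG vehicle 3 is the vehicle array that lay with DTG ISO on principal component 1. Leaving out DTG vehicle 2 turned the difference to -0.042, so its sign rested on that array. The ISO effect in DTG minus that in TG was 0.39 (SE 0.61), and 1.15 without TG ISO 3 and TG vehicle 3.

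Vehicle-treated DTG and TG hearts were compared to show what the miR-150 transgene changed without ISO. Tfrc was 6.09 in DTG vehicle and 5.47 in TG vehicle, a difference of 0.62 (SE 0.43), with overlap. Groups did not overlap at 7.72% of probes. Without TG vehicle 3 the difference was 0.095. Within scan 1 it was 0.035, with DTG vehicle 1 and 2 at a mean of 6.03 and TG vehicle 1 and 2 at 5.99. Without DTG vehicle 2 it was 0.86 and the arrays no longer overlapped, but no share of probes was computed for this smaller set. With scan or slide as a block it was 0.41 or 0.56. The size of the difference thus depended on single arrays, among them TG vehicle 3, which resembled the TG ISO arrays.

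Under ISO, Tfrc was higher in DTG than in TG hearts, with no overlap between the arrays. The lowest DTG ISO array stood at 6.13 and the highest TG ISO array at 5.76. The difference was 1.00 (SE 0.43, limma), which is 2.01-fold. Arrays of these groups did not overlap at 37.8% of the tested probes, and 23.7% did so with DTG ISO higher, so the separation of Tfrc was shared by a large part of the array. A difference at least as large and in the same direction was found at 12% of probes, and the median difference over all probes was 0.12. Other scalings moved that median to between -0.12 and 0.36, and relative to it Tfrc was higher by 0.88 to 1.19. The arrays did not overlap under any of 7 other scalings or sources of values, where the difference was 0.98 to 1.24. With any 1 array left out the difference was 0.77 to 1.24. Leaving out an array cannot make separate groups overlap, so the lack of overlap there adds nothing. Without TG ISO 3 and TG vehicle 3 it was 1.24 (SE 0.29), with TG ISO then given by arrays 1 and 2, which stood apart on principal component 1. TG ISO 3, which did not stand apart, was the closest to DTG ISO at 5.76. No scan held arrays of both groups, so scan and group cannot be told apart in this comparison. With scan as a block, where DTG vehicle 3 alone links scan 2 to the others, the difference was 0.68 (SE 0.84).

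**Figure D2:**
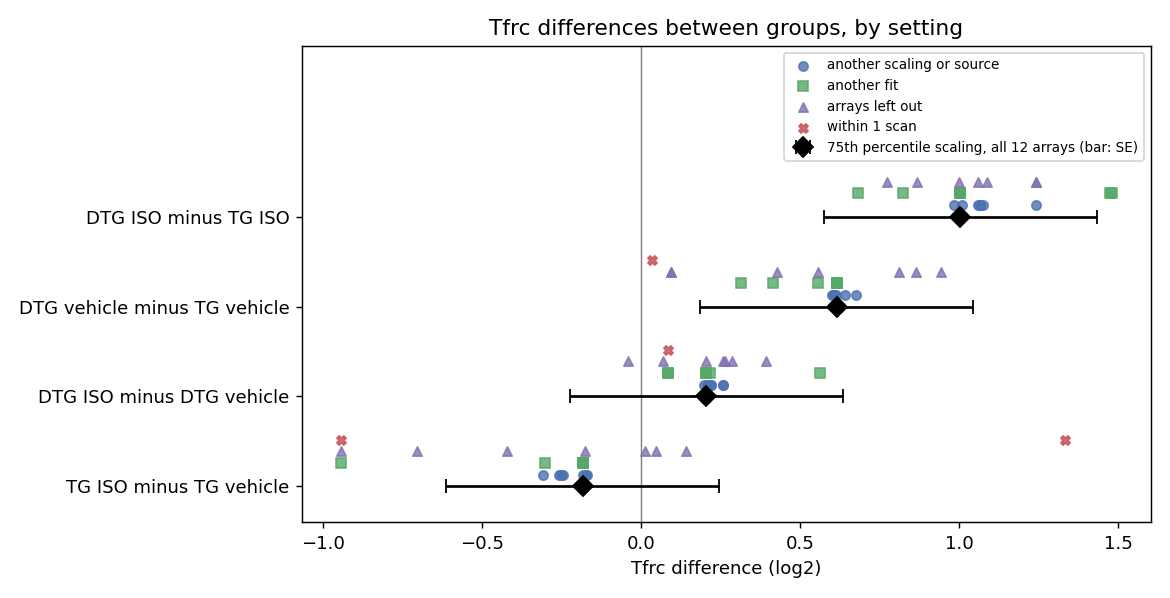
Differences of Tfrc between groups (x axis, log2) for the 4 comparisons (y axis). Black diamonds with bars are the values and SE from all 12 arrays, and coloured symbols are other scalings, other fits, values with arrays left out and values within 1 scan; TG ISO minus TG vehicle runs from -0.94 within scan 1 to 1.33 within scan 3, while DTG ISO minus TG ISO is above 0 in every setting shown.

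Labelled sex and age were set beside these levels. The 4 females ranged from 4.82 to 6.46 with a median of 5.99, and the 8 males from 4.43 to 6.56 with a median of 5.94. The female was below both males in DTG ISO and TG ISO, above both in DTG vehicle and between them in TG vehicle. With age as a covariate the difference between DTG ISO and TG ISO was 1.48 (SE 0.405), that between DTG ISO and DTG vehicle 0.56 (SE 0.38), that between TG ISO and TG vehicle -0.30 (SE 0.36), and the ISO effect in DTG minus that in TG 0.865 (SE 0.54). The 2 mice aged 12 weeks stood at 4.43, in TG vehicle, and at 6.13, in DTG ISO, so the oldest mice lay far apart. The first is TG vehicle 3, which lay with TG ISO 1 and 2 on principal component 1. The other TG vehicle mice were 9 weeks old, so the age fit leans on this array. It was not repeated without it.

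The range of Tfrc over the arrays was 2.13, against a median range of 1.45 over the tested probes. A range at least that wide was found at 25.3% of tested probes and at 14.1% of the 30681 that were well above background on all arrays. The share of tested probes was 8.15% under normexp and 7.42% with raw signals, but 32.6% under quantile normalization and 30.8% in the authors' table. Among the 15 housekeeping probes Tfrc had the widest range, followed by Gusb at 2.05. The low end for Tfrc was TG vehicle 3, at 4.43, and the next array stood at 4.82. The ends for Gusb, 2.515 on DTG ISO 2 and 4.57 on TG ISO 2, were other arrays. The order of Tfrc and Gusb thus rests on TG vehicle 3. Its residual SD within groups was 0.57, against a median of 0.41, and 28.4% of probes had a residual SD at least that large.

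The 3 lowest Tfrc values, 4.43, 4.82 and 5.28, belonged to TG vehicle 3, TG ISO 1 and TG ISO 2, the same 3 arrays that stood apart on principal component 1. The other 9 arrays ran from 5.59 to 6.56. Gusb, which encodes the lysosomal enzyme β-glucuronidase, moved the other way. It stood at 4.02 to 4.57 on these 3 arrays and at 2.52 to 2.91 on the other 9. In bulk tissue, fewer cells of a type and less RNA per cell cannot be told apart. Only housekeeping probes could be named, so markers of cardiomyocytes, red blood cells, leukocytes or dividing cells, and other genes of iron handling, were not analysed here, and the labelled tissue was not checked against cardiac markers.

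Likeness to Tfrc was measured by Pearson's correlation of levels over the 12 arrays, given as a description because all points share arrays and scaling. Among the 14 other named genes, Gk, which encodes glycerol kinase, was the most like Tfrc, with r = 0.91 and a Spearman correlation of 0.87. Gk was lowest on the same 3 arrays, at -3.31, -3.19 and -3.15. It was much dimmer than Tfrc, at -2.16 at most, though well above background on all 12 arrays. Its median spot SD was 0.125. The correlation was 0.81 without TG vehicle 3 and TG ISO 1, the 2 arrays with Tfrc farthest from its median, and 0.64 over the 9 arrays other than these 3. It ran from 0.78 to 0.93 over 7 scalings or sources of values. Like Tfrc, Gk was higher in DTG ISO than in TG ISO with no overlap, at -2.28 ± 0.08 against -2.92 ± 0.43 (SD, n = 3), a difference of 0.65. The Gk difference was above 0 in all 7 settings, at 0.22 to 0.88, but the arrays were without overlap in 3 of them. It was smallest with raw signals, at 0.22, and under normexp, at 0.24. The Tfrc and Gk differences come from the same arrays.

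For some of the other genes the correlation changed without the 3 arrays that stood apart. Tuba1b (α-tubulin) and B2m (the light chain of MHC class I) had r = -0.76 and -0.70 over 12 arrays, but -0.19 and -0.12 over the 9. Levels of Gusb, of Ppia (cyclophilin A) and of Rpl13a (a protein of the large ribosomal subunit) fell into separate clusters of 9 and 3 arrays, so no pooled value is given. Over the 9 arrays their r was -0.44, 0.003 and -0.36. Hsp90ab1, a chaperone, had r = 0.34 over 12 and -0.56 over 9. Hprt, an enzyme of purine salvage, had 0.38 and 0.39, but over the 7 settings its r on 12 arrays ran from 0.001 to 0.82. In the comparison of DTG ISO with TG ISO, 2 of the 14 other genes were higher without overlap, 5 were lower without overlap and 7 overlapped, beside 23.7% of all tested probes higher and 37.8% without overlap in either direction. These counts depended on the scaling, since 0 were higher and 3 lower without overlap after quantile normalization. Rpl13a and Actb (β-actin) were lower without overlap in all 7 settings. The difference of Gusb was -1.10, with overlap. It was larger in size than that of Tfrc in 2 of the 7 settings, this scaling among them, and smaller in the other 5.

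**Figure D3:**
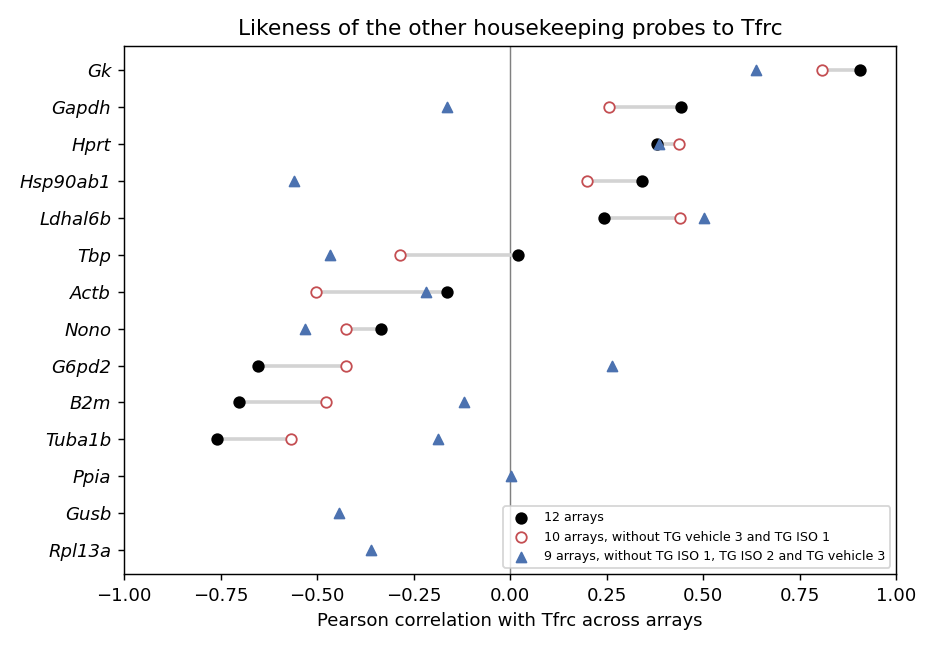
Pearson correlation with Tfrc (x axis) of 14 other housekeeping probes (y axis), over 12 arrays (black), over 10 arrays without TG vehicle 3 and TG ISO 1 (red circles) and over 9 arrays without TG ISO 1, TG ISO 2 and TG vehicle 3 (triangles). Ppia, Gusb and Rpl13a are shown for 9 arrays alone because their levels fall into 2 clusters; Gk is highest at 0.91 over 12 arrays.

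**Figure D4:**
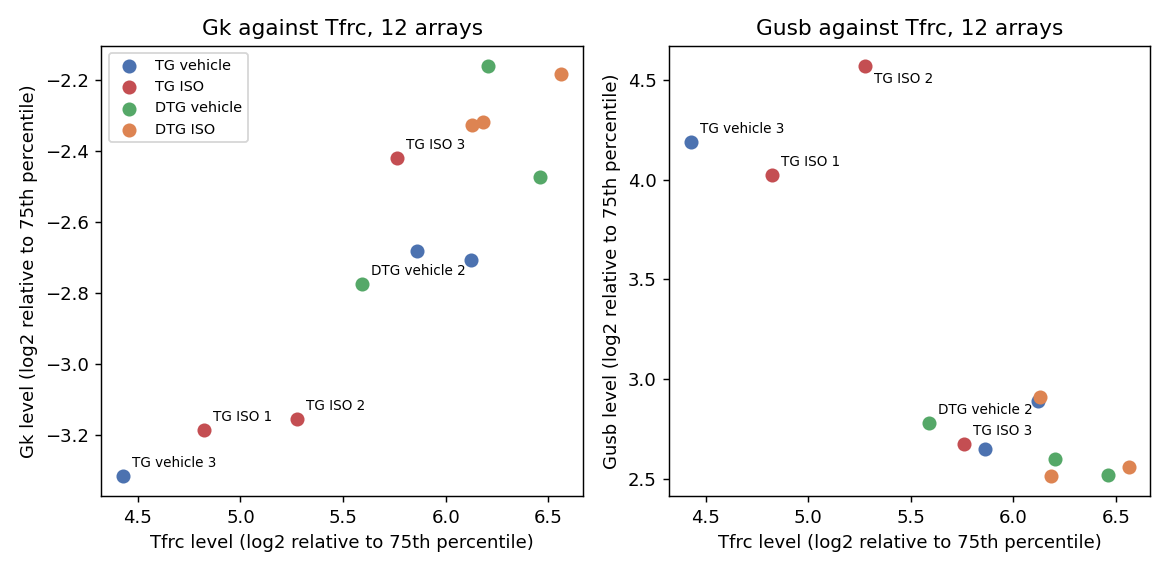
Levels of Gk (left) and Gusb (right) against Tfrc on the 12 arrays, both axes in log2 relative to the 75th percentile of the array, coloured by group. TG vehicle 3, TG ISO 1 and TG ISO 2 are lowest for Tfrc and Gk and highest for Gusb.

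Many probes without a gene name tracked Tfrc as closely. Of 44724 such probes, 350 (0.783%) had r of at least 0.9 over the 12 arrays and 239 (0.534%) had r of -0.9 or below. Without TG vehicle 3 and TG ISO 1, 8 and 10 of these stayed past the same limits. The most alike were ASMM10P048264, with r = 0.98, and ASMM10P015215, with 0.97 (well above background on 9 arrays), and the most opposite were ASMM10P051283 and ASMM10P034930, both at -0.97. Over the 10 remaining arrays their correlations were 0.95, 0.88, -0.90 and -0.93, in that order. Their mean levels were -2.59, -3.39, -0.025 and -3.55.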

How the data were processed

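Agilent 1-color (Cy3) arrays measured LV RNA of 12 mice. Ribosomal RNA had been removed and the remainder amplified with random primers, per the labels. The authors deposited Agilent Feature Extraction 11.0.1.1 output for each array, whose processed signal is an intensity with background and spatial trend already subtracted, and a table of log2 values normalized between arrays by a method not given in the sources used here. No sample column was left out (0). Control spots and negative-control probes were excluded, leaving 61200 spots of 60915 probes. The log2 processed signal minus the 75th percentile of the array was used, 908 outlier spots were left out and spots of a probe averaged. The model (limma 3.58.1, R 4.3.3) held 4 group means and took the 45154 probes that exceeded background clearly on 3 or more arrays. The fit gave differences and SEs, no p was taken from it for Tfrc, and it was tested on simulated data. The 15 named probes were matched to RefSeq by accession without version. Age, sex and group came from the labels, and the slide was inferred from array positions. Named genes were Tfrc, the other 14 housekeeping probes and the 2 unnamed probes with the highest and the 2 with the lowest correlation. A largest gap over 0.4 of the range marked clusters. The gene, lists and settings were chosen with earlier results of these data known. Files were read with the data.table package, version 1.17.8, and plots made with matplotlib 3.10.9. Normexp used median spot signals with an offset of 50.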

Additional observations from a re-analysis of the deposited data

How the results depend on the processing

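The difference between DTG ISO and TG ISO kept its direction in all 21 alternatives, from 0.68 with scan as a block to 1.48 with age as a covariate. Some of these could not change it. Sex as a covariate, the replicate block and the compared groups alone gave 1.00 by construction, and leaving out 1 array cannot reverse groups that do not overlap. With scan as a block the SE was 0.84, and with slide as a block the difference was 0.825 (SE 0.81). TG ISO minus TG vehicle moved from -0.18 to -0.94 within scan 1, with TG ISO 3 and TG vehicle 3 left out together and with array weights (which were 0.27 and 0.18 for these arrays), and to 1.33 within scan 3. DTG vehicle minus TG vehicle moved from 0.62 to 0.035 within scan 1. The ISO effect in DTG minus that in TG moved from 0.39 to 1.16 with array weights and to 1.15 without TG ISO 3 and TG vehicle 3. With 1 array left out, the ranges were -0.70 (without TG vehicle 3) to 0.14 (without TG vehicle 2) for TG ISO minus TG vehicle, -0.042 to 0.39 (without DTG vehicle 2 and DTG vehicle 1) for DTG ISO minus DTG vehicle, 0.095 to 0.94 (without TG vehicle 3 and TG vehicle 2) for DTG vehicle minus TG vehicle, 0.77 to 1.24 (without TG ISO 1 and TG ISO 3) for DTG ISO minus TG ISO, and 0.062 to 0.91 (without TG vehicle 2 and TG vehicle 3) for the difference of ISO effects.

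The share of probes with a range at least that of Tfrc moved from 25.3% to 8.15% under normexp, 7.42% with raw signals and 14.1% among probes well above background on all arrays, and rose to 36.3% with no filter, 32.6% under quantile normalization and 30.8% in the authors' table. With age as a covariate DTG ISO minus DTG vehicle was 0.56 and the difference of ISO effects 0.865. The Tfrc range was 1.89 to 2.34 over all scalings. The labels share replicate numbers, and the main fit did not treat these as pairs. Deviations from the group means of same-numbered arrays correlated over 0.1 in 3 of 18 pairs. The lowest r was -0.77, for TG vehicle 3 and TG ISO 3. This cannot decide whether the numbers pair the samples, because the arrays that stood apart on principal component 1 enter the TG group means. With the replicate block each difference kept its value by construction, and the SE of DTG ISO minus TG ISO was 0.465 in place of 0.43. All Tfrc spots used were well above background, and an effect of brightness on these values was not tested.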
